A study of Mus musculus with 4 samples.

Results

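The 39 genes described here are 38 genes for enzymes of glycolysis, of the pentose phosphate pathway, of pyruvate entry into mitochondria and of the TCA cycle, and Hif1a. They were taken by symbol from a table of 27179 genes. All 39 symbols were found, each in 1 row, and 38 had enough counts to be tested. RNA was sequenced from CD4+Foxp3+ regulatory T (Treg) cells, which keep immune responses in check, taken from the spleen and the peripheral lymph nodes of unchallenged C57BL/6 mice. The libraries comprised 2 from WT mice and 2 labelled P65KO, which lack RelA (p65), a subunit of the NF-kB transcription factors, according to the design text. The sources used here give neither the age of the mice nor the alleles and the driver of the deletion, nor whether replicates were separate mice. The p-values set the difference between groups against the spread of libraries within groups, which may therefore be partly technical.

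Glycolysis splits glucose into pyruvate and yields a little ATP, and lactate dehydrogenase can turn the pyruvate into lactate. The pentose phosphate pathway branches off at glucose 6-phosphate and makes NADPH and ribose, while pyruvate dehydrogenase, held in check by its kinases, feeds the TCA cycle. Activated T cells raise glycolysis, whereas Treg cells are known to rely more on oxidation. HIF-1alpha, the product of Hif1a, is a transcription factor that switches on many glycolytic genes and the kinase gene Pdk1. Its protein is removed in normal oxygen by prolyl hydroxylases and VHL, so its mRNA is only 1 of its controls. Hif1a is also a textbook NF-kB target gene.

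The libraries held 4513863 to 4624230 counts and were well matched in depth. Rela itself had 875 and 806 counts in the WT libraries against 820 and 909 in those labelled P65KO, so this count of the whole gene does not check the genotype label, and directions below are for the libraries as labelled. All 7 Treg markers were present, with a sum of 4545 and 4464 CPM in WT against 3723 and 4185 CPM (counts scaled to a common library size by TMM), and 4 of the 7 changed by the edgeR test described below. Ikzf2 fell 3.14-fold and Ctla4 1.89-fold, Cd3g also fell and Il2ra rose, while Foxp3, at 371 to 528 CPM, Cd4 and Cd3e did not pass. The P65KO-labelled libraries differed from WT in other ways too. The X inactivation RNA Xist had 494 and 608 counts in WT against 0 and 2, and the Y-linked gene Ddx3y 0 and 0 against 302 and 404, so genotype and these sex-linked signals cannot be told apart. Summed over 12 myeloid and dendritic markers, CPM was 148 and 220 in WT but 1152 and 424 in P65KO-labelled replicates 1 and 2. All 10 of these markers that could be tested rose; Cd14 had 4, 2, 3 and 0 counts and Siglech 0, 1, 0 and 0. Over 5 erythroid markers the sum was 21.3 and 27.8 CPM in WT against 104.5 and 192 CPM, and the 4 tested rose. Over 5 B cell markers it was 36.0 and 41.1 CPM against 18.1 and 12.2 CPM, with Pax5 at 0 in all 4 libraries, and Cd79b, the 1 tested, fell. Over 3 NK cell markers it was 20.4 and 25.8 CPM against 15.2 and 11.7 CPM, where Klrb1c fell 4.36-fold and 2 did not pass. Over 2 CD8 T cell markers it was 25.4 and 25.8 CPM against 32.9 and 32.1 CPM, and Cd8b1, the 1 tested, did not pass. The sum over 10 proliferation genes was 529 and 595 CPM in WT and 469 and 342 CPM in P65KO-labelled libraries, and 5 of the 10 fell. The part of these markers and states in the results below was not tested. In such bulk samples, fewer cells of a type and less RNA per cell cannot be told apart.

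The largest change among the 38 tested genes was the fall of Hif1a, while the enzymes summed to about the same level in both groups. Over the 38 enzyme genes the summed CPM was 6531 ± 54.4 in WT and 6581 ± 118 in P65KO-labelled libraries (SD, n = 2 each). Gapdh was too low to test. Of the 37 other enzyme genes and Hif1a, 5 fell (Hif1a, Tpi1, Aldoa, Pgam1 and Ldhb), 6 rose (Eno1, Pdk1, Pdha1, G6pdx, Idh1 and Idh2) and 27 did not pass (quasi-likelihood test of edgeR, p-values adjusted over all genes tested by Benjamini and Hochberg's method, threshold 0.05, as for each edgeR adjusted p). The share called, 28.9%, stood beside 20.7% of the 11172 genes tested, with 9.00% of all genes higher and 11.7% lower. The median log2 fold change of the 38 was 0.02, against 0.00 for all genes tested. A change under 0.25 on the log2 scale in either direction was measured for 60.5% of the tested genes listed here and for 54.6% of all genes tested. On leaving out any 1 library, which leaves 1 in its group, fewer genes were called, both among these 38 and among all genes tested. The count of 11 was 6 with DESeq2, where that of all genes went from 2310 to 1318. Without the low-count filter it was 4, where 771 of 16183 genes were called. With no scaling between libraries 10 were called, 3 higher and 7 lower, in place of 6 and 5. The calls of Hif1a, Tpi1 and Pdk1 held under each of the 11 other settings tried, and that of Ldhb under all except the one without WT replicate 2.

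**Figure D1:**
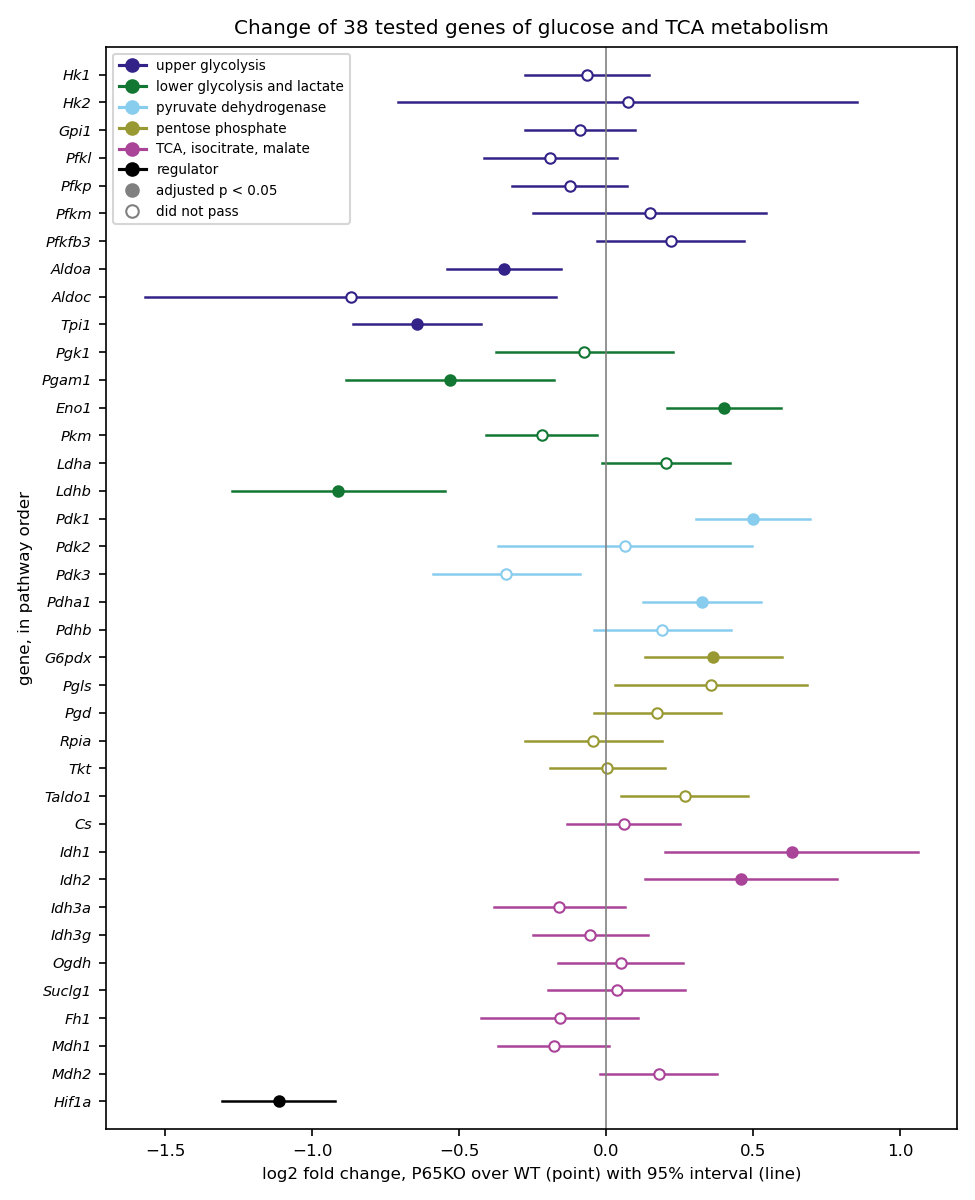
Log2 fold change (P65KO over WT, horizontal axis) of the 38 tested genes in pathway order, coloured by class, as points with the 95% interval of the edgeR fit as lines; filled points passed the adjusted p threshold of 0.05. Hif1a lies farthest from 0 at -1.11, and most enzymes lie within 0.25 of 0.

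Promoter windows of RefSeq (build GRCm38.p6, 250 bases before to 50 after each annotated start) were available for 38 of the 39 genes, in 59 windows. They were searched on both strands for the HIF core ACGTG, for the E-box CACGTG, which contains the core on both strands and so gives 2 overlapping matches, and for the NF-kB consensus site. The core was found in 27 of the 59 windows (45.8%), against 19.6% of 32851 windows of the same length over all genes. Those windows were not matched to the 59 in base composition, so the part of base composition in this difference was not tested. Windows of the same gene can overlap and hold the same match, as for Ogdh and Aldoa, so some matches were counted repeatedly. The share of genes with a core was not computed over all genes. The NF-kB site was found in 2 windows (3.39%), those of Ogdh and Pdk2, against 4.51% of all windows. Of the genes that rose, 1 of 6 had a core in a window (G6pdx), and of those that fell 3 of 5 (Hif1a, Aldoa and Pgam1). The same held for 14 of 26 genes that did not pass, and for 19 of the 38 genes with a window in all. These are matches of letters, not tested sites, and no match says only that these letters are not in the window.

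The windows of the 4 genes whose calls held most widely, and of Ldha, the main isoenzyme beside Ldhb, show how they differ in this respect. They are written 5′ to 3′ on the strand of the gene, and capitals mark the HIF core on either strand. The Hif1a window, around an annotated start inside the gene interval given below (chr12:73907617-73907916, plus strand), has 3 matches, starting 135, 134 and 70 bases before the start site, of which the first pair is 1 E-box:
Hif1a: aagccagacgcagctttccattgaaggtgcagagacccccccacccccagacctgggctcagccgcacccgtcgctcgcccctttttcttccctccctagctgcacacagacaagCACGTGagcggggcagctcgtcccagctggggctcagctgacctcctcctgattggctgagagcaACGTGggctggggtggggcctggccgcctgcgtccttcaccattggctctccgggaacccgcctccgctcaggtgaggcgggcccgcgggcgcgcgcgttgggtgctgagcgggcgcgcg
The first window of Ldha (chr7:46845554-46845853, plus strand; not past the test) has 5 matches, including 2 E-boxes, while its other window has none:
Ldha: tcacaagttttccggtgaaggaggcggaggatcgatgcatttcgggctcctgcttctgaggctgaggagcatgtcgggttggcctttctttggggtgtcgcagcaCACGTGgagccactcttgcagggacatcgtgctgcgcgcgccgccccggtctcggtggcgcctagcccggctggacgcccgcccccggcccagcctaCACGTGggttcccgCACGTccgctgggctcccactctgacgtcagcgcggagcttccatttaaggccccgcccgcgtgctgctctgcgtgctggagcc
The first of the Pdk1 windows (chr2:71872974-71873273, plus strand), a gene that rose, has none, nor has its other window:
Pdk1: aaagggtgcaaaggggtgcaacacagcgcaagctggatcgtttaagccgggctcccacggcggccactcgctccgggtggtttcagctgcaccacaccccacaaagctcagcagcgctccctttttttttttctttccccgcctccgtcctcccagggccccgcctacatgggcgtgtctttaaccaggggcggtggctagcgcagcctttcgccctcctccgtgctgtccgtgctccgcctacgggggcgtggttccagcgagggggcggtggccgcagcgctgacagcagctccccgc
The windows of Tpi1 (chr6:124814109-124814408, minus strand) and Ldhb (chr6:142507908-142508207, minus strand), which fell, have none either:
Tpi1: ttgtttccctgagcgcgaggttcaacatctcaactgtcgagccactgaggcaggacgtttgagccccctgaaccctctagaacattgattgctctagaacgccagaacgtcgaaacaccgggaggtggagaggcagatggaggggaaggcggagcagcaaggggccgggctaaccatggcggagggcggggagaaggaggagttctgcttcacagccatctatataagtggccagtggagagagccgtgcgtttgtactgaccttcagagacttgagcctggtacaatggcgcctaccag
Ldhb: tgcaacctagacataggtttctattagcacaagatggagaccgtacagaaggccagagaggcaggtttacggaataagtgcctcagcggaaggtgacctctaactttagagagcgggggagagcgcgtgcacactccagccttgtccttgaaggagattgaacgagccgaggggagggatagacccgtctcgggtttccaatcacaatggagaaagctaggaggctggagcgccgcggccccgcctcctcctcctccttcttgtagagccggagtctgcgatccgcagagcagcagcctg

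Hif1a (Entrez 15251; GRCm38 chromosome 12, 73901324 to 73947554) counted 2400 and 2412 in the WT libraries against 1068 and 1105 in the P65KO-labelled ones. On the CPM scale these were 521 and 519 against 236 and 245, so replicates nearly coincided and the groups lay far apart. Hif1a thus fell 2.17-fold from a mean of 520 ± 1.31 CPM to 240 ± 6.48 CPM (SD, n = 2 each; log2 fold change -1.11, SE 0.09; edgeR adjusted p = 2.86e-06). Over the settings tried the log2 fold change ran from -1.16 to -1.09, and it was -1.09 without P65KO-labelled replicate 1. The part of transcripts from other cell types in this fall was not tested. None of the 50-base words of its main transcript occurs in another annotated gene outside its locus. Of its exon bases, 5.6% are also covered by the antisense gene Gm15283, and the strand setting of the counting is not known. A further gene, Gm49321, covers 2.51% on the same strand.

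Other genes of the HIF system had been listed beside it, 12 in all, of which 11 were tested, 2 fell and 1 rose. The share called, 27.3% of these few genes, stood beside 20.7% of all genes tested. Egln3, a prolyl hydroxylase that is itself induced by HIF, had 19.5 and 17.4 CPM in WT and 6.17 and 5.09 CPM in P65KO-labelled libraries. It fell 3.27-fold (log2 -1.71, SE 0.24; edgeR adjusted p = 2.88e-04), a call that held under all 11 other settings. Hif3a, a HIF family member of low level here, fell from 5.94 ± 0.422 to 1.99 ± 0.619 CPM (SD, n = 2 each), but its call ended with DESeq2, with no filter, without either WT replicate and without P65KO-labelled replicate 2. The gene that rose was Myc, a transcription factor that also drives glycolytic genes, at 95.9 and 103 CPM in WT against 133 and 156 CPM, and its call ended without WT replicate 1 and with no filter. Epas1, which encodes HIF-2alpha, varied within groups, at 11.9 and 6.67 CPM in WT against 3.75 and 6.42 CPM, and did not pass (edgeR adjusted p = 0.123). Arnt, the constant partner of HIF-1alpha, stood at 85.5 and 85.4 CPM in WT and at 84.7 and 90.3 CPM in the other libraries (log2 0.03, 95% interval -0.18 to 0.25), and Vhl at 67.0 ± 1.12 and 58.1 ± 3.61 CPM (SD, n = 2 each).

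Of 15 textbook HIF targets outside glucose metabolism, 11 were tested: 2 rose, 1 fell (Egln3 again) and 8 did not pass, with a median log2 fold change of 0.03. Ndrg1, a stress-induced gene, rose from 31.3 and 28.0 CPM to 58.0 and 65.8 CPM (2.09-fold; edgeR adjusted p = 9.03e-05). P4ha1, a subunit of the collagen prolyl hydroxylase, rose 1.44-fold, a call that ended without WT replicate 1. The share called, 27.3%, stood beside the 20.7% of all genes tested.

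**Figure D2:**
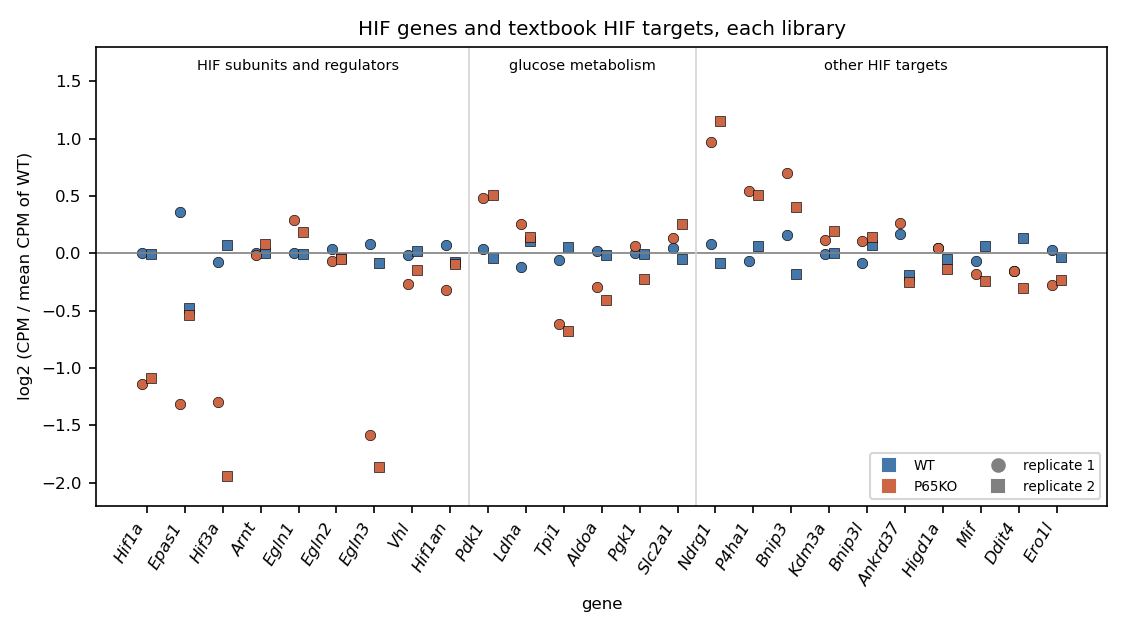
Log2 ratio of CPM to the WT mean (vertical axis) in each of the 4 libraries. The genes (horizontal axis) are HIF subunits and regulators, 6 chosen genes of glucose metabolism and the other tested HIF targets. Blue is WT, orange P65KO-labelled, circles replicate 1 and squares replicate 2. The 6 chosen genes leave out Eno1, which passed and rose, and Pgam1, which passed and fell. Of the genes shown that passed the test, Hif1a, Hif3a, Egln3, Tpi1 and Aldoa lie below WT in both P65KO-labelled libraries. Pdk1, Ndrg1 and P4ha1 lie above it, and Arnt lies near the WT mean.

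The upper part of glycolysis, from hexokinase to triose phosphate isomerase, held 10 genes, with a median log2 fold change of -0.11. Of these, 2 fell and 8 did not pass, which is 20% called beside 20.7% of all genes tested. The 8 included Aldoc and ranged from -0.87 to 0.22. Their 10 CPM values summed to 1769 ± 38.2 in WT and 1540 ± 25.1 in P65KO-labelled libraries (SD, n = 2 each). Tpi1 (Entrez 21991; chromosome 6, 124810586 to 124814158), triose phosphate isomerase, which interconverts the products of aldolase, had 111 and 119 CPM in WT and 75.0 and 72.2 CPM in P65KO-labelled libraries. It fell 1.56-fold (log2 -0.64, SE 0.10; edgeR adjusted p = 6.10e-04).

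Aldoa, the main aldolase, which cleaves fructose bisphosphate, had 637 and 622 CPM in WT and 514 and 475 CPM in P65KO-labelled libraries. It fell 1.27-fold (log2 -0.35, SE 0.09; edgeR adjusted p = 0.0153), with no overlap between groups. The call ended with no filter (edgeR adjusted p = 0.0724), without either WT replicate (0.106 and 0.0796) and without P65KO-labelled replicate 2 (0.168). Aldoc, a minor aldolase, had 33 and 42 counts in the WT libraries against 18 and 22 in those labelled P65KO and did not pass (log2 -0.87, SE 0.32; edgeR adjusted p = 0.0769).

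The enzymes known for controlling glycolytic flux did not pass. Hk1, the hexokinase that traps glucose as glucose 6-phosphate, had 258 and 223 CPM in WT and 225 and 234 CPM in P65KO-labelled libraries (log2 -0.07, 95% interval -0.28 to 0.15). Hk2, the inducible hexokinase, had 25 and 45 counts in the WT libraries against 46 and 26 in those labelled P65KO, so the groups overlapped almost wholly and the interval of its log2 fold change was wide, -0.71 to 0.85. The phosphofructokinase genes Pfkl, Pfkp and Pfkm, which commit sugar to glycolysis, lay at log2 fold changes of -0.19, -0.13 and 0.15, and Pfkfb3, which makes their activator fructose 2,6-bisphosphate, at 0.22. Gpi1, glucose phosphate isomerase, had 459 CPM in both WT libraries and 432 CPM in both P65KO-labelled ones (log2 -0.09, 95% interval -0.28 to 0.10). The glucose transporter genes Slc2a1 and Slc2a3, listed beside them, did not pass either: Slc2a1 (GLUT1) stood at 56.2 ± 2.48 and 64.4 ± 3.78 CPM and Slc2a3 (GLUT3) at 131 ± 1.96 and 131 ± 3.82 CPM (SD, n = 2 each).

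In lower glycolysis and lactate formation, 7 genes, 6 were tested: 2 fell, 1 rose and 3 (Pgk1, Pkm and Ldha) did not pass, with a median of -0.15. The share called was 50% of these few genes, against 20.7% of all genes tested. The summed CPM was 1746 ± 82.8 in WT and 1784 ± 53.6 in P65KO-labelled libraries (SD, n = 2 each). Ldhb (Entrez 16832; chromosome 6, 142490249 to 142507957), the lactate dehydrogenase chain typical of oxidative tissue, had 130 and 155 counts in the WT libraries against 71 and 77 in those labelled P65KO. It fell 1.88-fold, from a mean of 30.8 ± 3.63 CPM to one of 16.4 ± 0.985 CPM (SD, n = 2 each; log2 fold change -0.91, SE 0.17; edgeR adjusted p = 0.00198). Without WT replicate 2 its log2 fold change was -0.78 and did not pass (edgeR adjusted p = 0.0719). Ldha, the chain that prevails in glycolytic cells, stood at 612 and 715 CPM in WT and at 795 and 733 CPM in P65KO-labelled libraries (log2 0.20, 95% interval -0.02 to 0.42), without overlap, though WT replicate 2 lay nearer to P65KO-labelled replicate 2 than to the other WT library.

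Pgam1, phosphoglycerate mutase, fell from 26.3 and 30.3 CPM to 20.5 and 18.6 CPM (1.45-fold; log2 -0.53, SE 0.16; edgeR adjusted p = 0.0358). That call ended with DESeq2 (DESeq2 adjusted p = 0.298), with no filter and on leaving out any of the 4 libraries. Eno1, the enolase that makes phosphoenolpyruvate, rose from 223 and 222 CPM to 283 and 304 CPM (1.32-fold; log2 0.40, SE 0.09; edgeR adjusted p = 0.00693). Its near-identical copy Eno1b had 57.7 and 57.7 CPM in WT and 69.0 and 83.0 CPM in P65KO-labelled libraries, and with the counts of both summed the log2 fold change was again 0.40 (edgeR adjusted p = 0.00775). The call of Eno1 ended with no filter (edgeR adjusted p = 0.0566), without either WT replicate and without P65KO-labelled replicate 2. Eno3, the enolase named for muscle, rose from 29.3 and 32.3 CPM to 61.5 and 57.6 CPM (1.93-fold; edgeR adjusted p = 1.61e-04), a call that held under all 11 other settings. Eno1, Eno1b and Eno3 thus all rose, although the call of Eno1b ended under 5 settings. Of the 50-base words of Eno1b, 85.2% occur in other annotated genes, so its rise may not be separate from that of Eno1. Pkm, pyruvate kinase, stood at 757 and 763 CPM in WT and at 666 and 639 CPM in P65KO-labelled libraries and did not pass (log2 -0.22, 95% interval -0.41 to -0.03; edgeR adjusted p = 0.0981). With no scaling between libraries it did (edgeR adjusted p = 0.044). Gene-level counts do not separate its M1 and M2 forms, and 15.3% of its exon bases are shared with Gm49759 on the same strand.

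**Figure D3:**
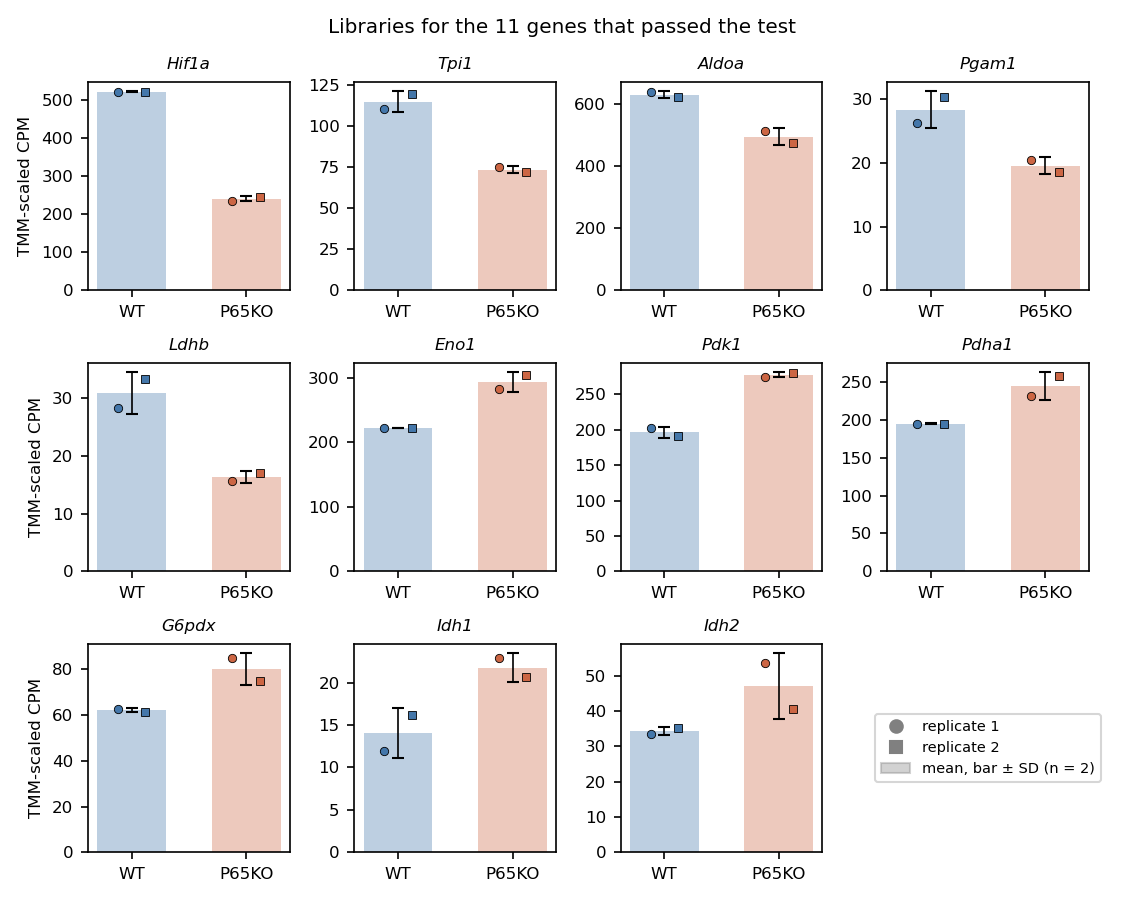
TMM-scaled CPM (vertical axes, from 0) of the 11 genes that passed the test, with the mean of each group as a bar, the SD over 2 libraries as a black line and each library as a point. Hif1a falls from 520 to 240 CPM, and Idh2 has the widest spread for its level among the P65KO-labelled libraries, at 53.6 and 40.5 CPM.

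Gapdh, the dehydrogenase often used as a reference for expression, was nearly absent from the counts, with 7 and 7 counts in the WT libraries against 5 and 7 in those labelled P65KO, and it was too low to be tested. Its ratio of P65KO-labelled to WT was 0.877 (exact 95% conditional binomial interval 0.370 to 2.04, counting error only). Of the 50-base words in its main transcript, 78.3% also occur in another annotated gene, and 213 annotated pseudogenes hold at least 1 of them. The sources used here do not say how reads that map to several places were counted, so the low value cannot be read as low expression. Other members with many shared words were Eno1 (72.2%), Aldoa (70.1%), Pgk1 (68.0%), Pgam1 (41.5%), Pkm (30.5%), Pdhb (30.3%) and Ldhb (27.0%), and their values are uncertain for the same reason. Gpi1 (19.3%), Ldha (16.4%) and Taldo1 (12.4%) followed, with the same uncertainty. For Tpi1 the share was 7.51%, and for Pdk1, Idh1 and Idh2 it was 0. The part of shared sequence in the levels and in the differences between groups was not tested.

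**Figure D4:**
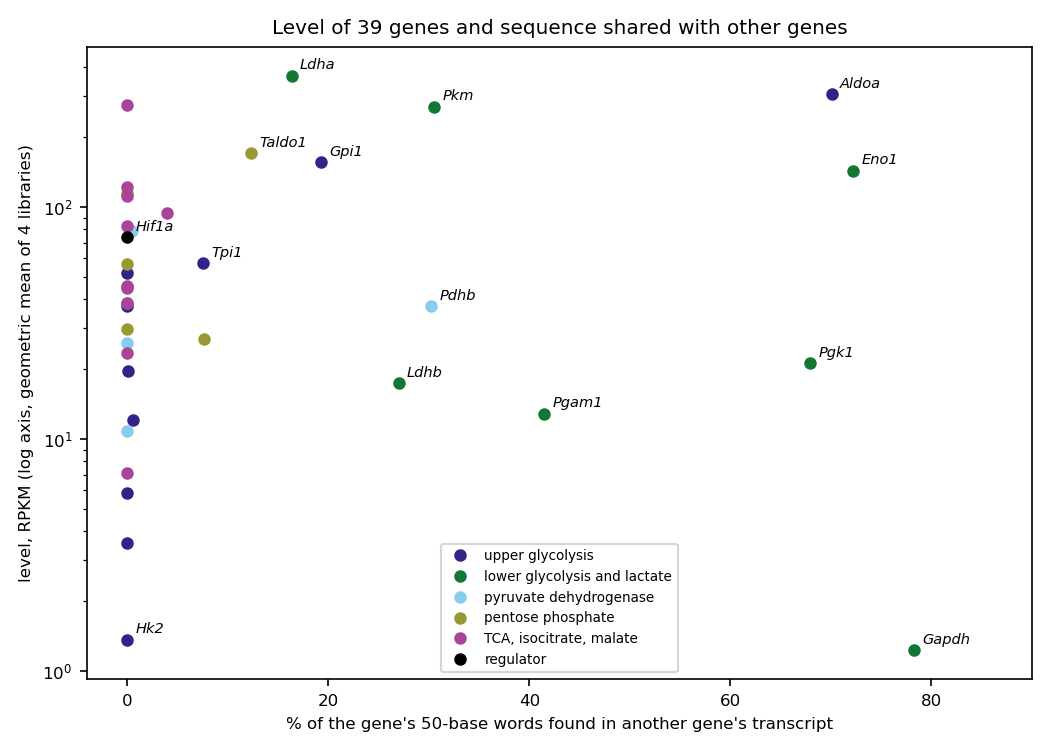
Level per gene length (vertical log axis, RPKM, geometric mean of 4 libraries) of the 39 genes against the share of their 50-base words that occur in another gene's transcript (horizontal axis), coloured by class. Gapdh combines the highest share, 78.3%, with the lowest level, 1.23 RPKM, whereas Aldoa at 70.1% stands at 305 RPKM.

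Per gene length, the deposited values put Ldha first, at 367 RPKM (counts per kilobase of gene length, scaled to library size; geometric mean of 4 libraries), followed by Aldoa at 305, Mdh2 at 274, Pkm at 270 and Taldo1 at 171 RPKM. The lowest after Gapdh were Hk2 at 1.37, Aldoc at 3.55, Pfkm at 5.83 and Idh1 at 7.15 RPKM. Within enzyme families the share of each isoenzyme, computed per length, stayed in a narrow range for hexokinase and aldolase. Hk1 made up 96.4% to 98.3%, with overlap between groups, and Aldoa 98.5% to 99.2%. The small Aldoc share was 1.19% and 1.53% in WT against 0.821% and 1.09% in those labelled P65KO, without overlap. Pfkp was the main phosphofructokinase, with 59.3% to 59.8%. Pfkl made up 32.8% and 31.0% in WT against 30.1% and 30.7%, and Pfkm 7.69% and 9.19% against 10.6% and 9.71%. The share of Ldhb in lactate dehydrogenase was 6.45% and 6.52% in WT against 2.86% and 3.37% in those labelled P65KO. With 2 libraries against 2, an exact two-sided permutation test cannot go below p = 0.33, which is the value reached for Aldoc, Pfkl, Pfkm and Ldhb. In the NADP-dependent isocitrate dehydrogenases, Idh1 made up 20.0% and 24.3% in WT against 23.0% and 26.2%, so these groups overlapped.

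**Figure D5:**
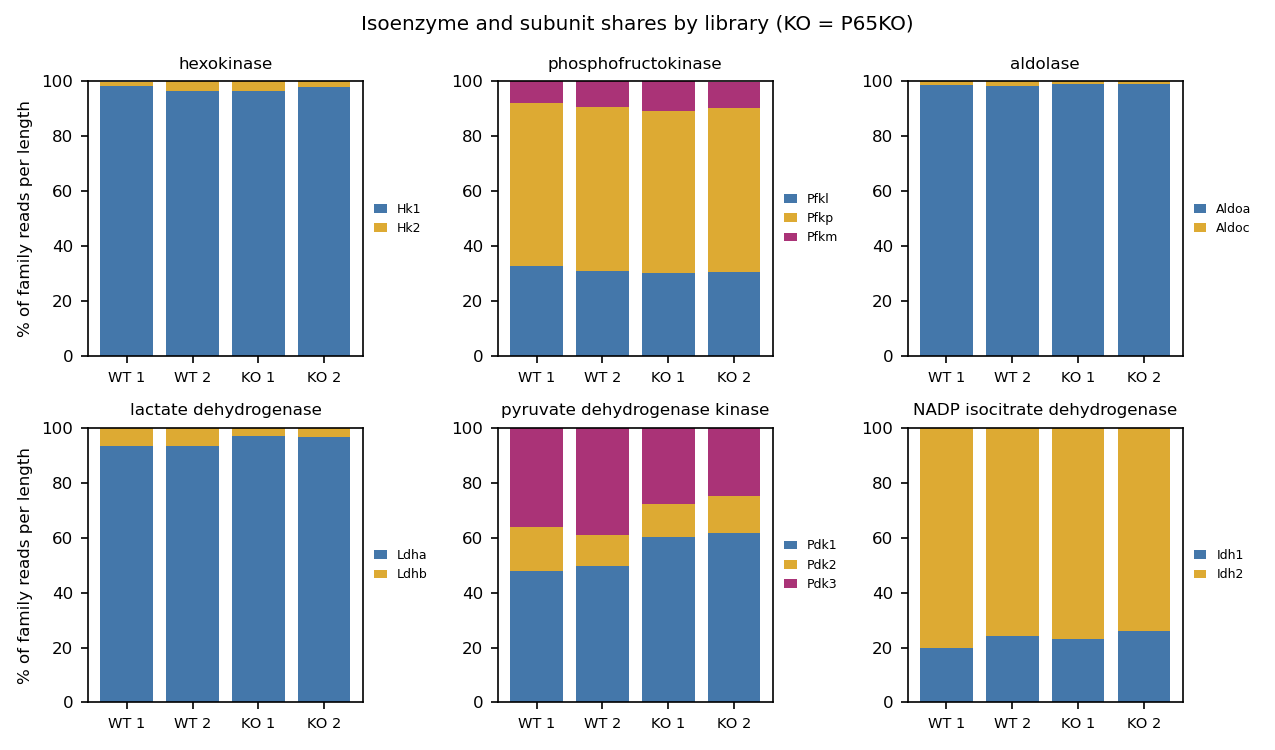
Share of each isoenzyme or subunit in its family (vertical axis, percent of counts per gene length) in the 4 libraries (horizontal axis; KO stands for P65KO). The Pdk1 share is 48.1% and 49.7% in WT but 60.4% and 61.9% in the P65KO-labelled libraries, where that of Pdk3 is smaller, and the minor Ldhb share is smaller in both P65KO-labelled libraries.

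Among the genes of pyruvate dehydrogenase and its kinases, 2 of 5 rose and 3 (Pdk2, Pdk3 and Pdhb) did not pass, with a median of 0.19. That is 40% called in a small class, beside 20.7% of all genes tested. The summed CPM of the 5 genes was 526 ± 16.8 in WT and 652 ± 18.6 in P65KO-labelled libraries (SD, n = 2 each). Pdk1 (Entrez 228026; chromosome 2, 71873215 to 71903858), a kinase that switches pyruvate dehydrogenase off and a known HIF target, had 202 and 191 CPM in WT and 275 and 280 CPM in P65KO-labelled libraries. It rose 1.41-fold (log2 0.50, SE 0.09; edgeR adjusted p = 0.00164). Pdk1 and Hif1a thus went in opposite directions in the same libraries. Of the glycolytic and lactate genes that passed, Tpi1, Aldoa, Pgam1 and Ldhb fell as Hif1a did, and Eno1 rose. Whether any of these changes is linked to that of Hif1a was not tested. Pdk3 (chromosome X), another of these kinases, stood at 58.8 and 58.1 CPM in WT and 49.0 and 43.4 CPM in P65KO-labelled libraries and did not pass (log2 -0.34, SE 0.11; edgeR adjusted p = 0.0554). With no scaling between libraries it passed (edgeR adjusted p = 0.0333). Within the kinase family the share of Pdk1 was 48.1% and 49.7% in WT against 60.4% and 61.9% in those labelled P65KO, and that of Pdk3 36.0% and 38.9% against 27.6% and 24.7% (exact two-sided permutation p = 0.33 for each, the smallest possible).

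Pdha1, the catalytic E1 subunit gene of pyruvate dehydrogenase, rose from 195 and 194 CPM to 231 and 257 CPM (1.25-fold; log2 0.33, SE 0.09; edgeR adjusted p = 0.0258). Its call ended with DESeq2 (DESeq2 adjusted p = 0.0506), with no filter, without either WT replicate and without P65KO-labelled replicate 2. Pdhb, which encodes the partner subunit, stood at 51.9 ± 0.620 and 59.2 ± 1.08 CPM (SD, n = 2 each; log2 0.19, 95% interval -0.04 to 0.43). Pdha1 lies on chromosome X, as do G6pdx, Pdk3, Idh3g and Pgk1, and the groups differed in sex-linked transcripts. Of these 5 genes 2 rose and 3 did not pass, while 21.7% of 351 tested genes of chromosome X were called. Pgk1 stood at 39.5 and 39.2 CPM in WT and 41.0 and 33.7 CPM in P65KO-labelled libraries, and Idh3g at 151 against 146 CPM. The exons of Pdha1 overlap those of Map3k15 on the other strand over 16.2% of their bases.

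In the pentose phosphate pathway 1 of 6 genes rose and 5 did not pass, with a median of 0.22 and a range of -0.04 to 0.36. The share called, 16.7%, stood beside 20.7% of all genes tested. The summed CPM was 841 ± 6.16 in WT and 920 ± 45.9 in P65KO-labelled libraries (SD, n = 2 each). G6pdx (Entrez 14381; chromosome X, 74409483 to 74428880), the first and rate-limiting enzyme of the oxidative branch, had 62.7 and 61.5 CPM in WT and 84.9 and 75.1 CPM in P65KO-labelled libraries. It rose 1.29-fold (log2 0.36, SE 0.11; edgeR adjusted p = 0.0308), a call that ended with DESeq2 (DESeq2 adjusted p = 0.203), with no filter, with no scaling, without either WT replicate and without P65KO-labelled replicate 1. Its exons overlap those of Ikbkg, the NEMO gene of the NF-kB pathway, on the other strand over 13.6% of their bases. Pgls, the lactonase that follows, whose exons share 20.6% of their bases with Fam129c, stood at 23.1 ± 0.166 and 29.6 ± 1.79 CPM (log2 0.36, 95% interval 0.03 to 0.68; adjusted p = 0.117 in the edgeR fit), and Taldo1, transaldolase, at 199 ± 1.24 and 240 ± 27.1 CPM (SD, n = 2 each). Tkt, transketolase, the hub of the non-oxidative branch, had 367 ± 22.5 and 368 ± 2.84 CPM (log2 0.00, 95% interval -0.19 to 0.20). Its relative Tktl1, also on chromosome X and listed beside it, had 25 and 41 counts in the WT libraries against 3 and 3 in those labelled P65KO and fell by 3.37 on the log2 scale (edgeR adjusted p = 5.70e-04).

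The TCA cycle genes, with the cytosolic and NADP-dependent isocitrate and malate dehydrogenases, had a median log2 fold change of 0.04. Of 10 genes 2 rose and 8 did not pass, which is 20% called beside 20.7% of all genes tested. The summed CPM was 1649 ± 32.8 in WT and 1684 ± 12.5 in P65KO-labelled libraries (SD, n = 2 each). The 8 that did not pass ranged from -0.18 (Mdh1) to 0.18 (Mdh2), and among them Cs, citrate synthase, which opens the cycle, stood at 260 ± 1.94 and 271 ± 13.0 CPM (log2 0.06, 95% interval -0.13 to 0.25). Ogdh, of the 2-oxoglutarate dehydrogenase complex, stood at 313 ± 4.65 and 324 ± 36.7 CPM, Fh1, fumarase, at 77.3 ± 6.26 and 69.3 ± 10.6 CPM, and Suclg1, a succinyl-CoA ligase subunit, at 114 ± 6.34 and 117 ± 14.3 CPM (SD, n = 2 each). The NAD-dependent isocitrate dehydrogenase subunit genes Idh3a and Idh3g had log2 fold changes of -0.16 and -0.05.

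The genes that rose in this class were both NADP-dependent isocitrate dehydrogenases, which make NADPH. Idh1, the cytosolic form, had 55 and 75 counts in the WT libraries against 104 and 93 in those labelled P65KO and rose 1.55-fold (log2 0.63, SE 0.20; edgeR adjusted p = 0.0403). Idh2, the mitochondrial form, had 154 and 163 counts in the WT libraries against 243 and 183 in those labelled P65KO and rose 1.37-fold (log2 0.46, SE 0.15; edgeR adjusted p = 0.0478). Both calls ended with DESeq2 (DESeq2 adjusted p = 0.270 and 0.243), with no filter, with no scaling, and without either WT replicate or P65KO-labelled replicate 1, that of Idh1 also without P65KO-labelled replicate 2, and that of Idh2 also with limma-voom. Without P65KO-labelled replicate 1 the log2 fold change of Idh2 was 0.24, against 0.55 for Idh1. That library also held most of the myeloid transcripts, and Hk3, a hexokinase of myeloid cells, had 58 counts in it against 8, 4 and 5 in the others. Of the P65KO-labelled libraries, replicate 1 was the higher for Idh1, Idh2 and G6pdx. For Eno1 it was replicate 2, at 304 CPM against 283 CPM in replicate 1. The part of myeloid transcripts in the rises of Idh1, Idh2, G6pdx and Eno1 was not tested.

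Beyond these members, 82 other genes of glucose uptake, glycolysis, the pentose phosphate pathway, the TCA cycle, shunt reactions and HIF control had been listed. Of the 62 tested, 7 rose, 6 fell and 49 did not pass, and the share called, 21.0%, stood beside the 20.7% of all genes. Me2, mitochondrial malic enzyme, rose 1.49-fold from 112 ± 8.80 to 167 ± 3.77 CPM, and Adpgk, an ADP-dependent glucokinase, 1.58-fold from 39.5 and 42.0 CPM to 67.7 and 61.3 CPM (SD, n = 2 each, for Me2), and both calls held under all 11 other settings. Suclg2, a succinyl-CoA ligase subunit, rose 1.47-fold, a call that ended with DESeq2, with no filter and on leaving out any of the 4 libraries. Pck2, mitochondrial phosphoenolpyruvate carboxykinase, fell 1.70-fold and Slc16a6, a member of the monocarboxylate transporter family, 1.85-fold. Both of these calls ended with no filter and without either WT replicate, and that of Slc16a6 also with DESeq2 and without P65KO-labelled replicate 2.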

How the data were processed

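The deposited table holds raw counts of 4 libraries, 1 row per Entrez gene. The authors also deposited log2 RPKM values, which follow from those counts, 0.5 added to each, and a gene length. The submitters' processing notes name featureCounts, Subread, limma and GRCm38 (mm10). Versions, annotation, strand setting and the handling of multi-mapping reads were not given in the sources used here. Genes without a symbol (571, 0.453% to 0.562% of counts) were kept.

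Counts were filtered with filterByExpr, scaled by TMM and tested with edgeR 4.0.16 in R 4.3.3 (glmQLFTest, no covariates). P-values were adjusted over the 11172 genes tested by Benjamini and Hochberg's method, with a threshold of 0.05; the script was tested on simulated counts. The SE is the log2 fold change over the square root of F. Isoenzyme shares used counts per length. Alternatives were other scaling, DESeq2 1.42.0, limma-voom (limma 3.58.1), no filter, each library left out, a replicate block and, added after seeing the data, no X and Y genes, Eno1 with Eno1b, and a crossed block. The check of shared 50-base words, against GENCODE M21 transcripts, was also added then. A floor of 3 counts is 0.646 to 0.664 CPM. Intervals on counts cover counting error only.

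The members, lists and naming rule (every member past the threshold, 6 fixed members, and the 10 largest called changes among the other pathway genes) were chosen with earlier results of these data known. Coordinates are from RefSeq GRCm38.p6. Of the listed marker symbols, Hbb-bt was absent from the table.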

Additional observations from a re-analysis of the deposited data

How the results depend on the processing

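The call of Hif1a, Tpi1 and Pdk1 kept its direction and side of the threshold under all 11 settings, and no called member changed sign under any. Over the 11 called members, 80 of the alternative values kept the call and 40 lost it. Of all genes tested, 2310 were called (1005 higher, 1305 lower), against 1318 with DESeq2 (587 and 731), 771 with no filter (246 and 525) and 2308 with no scaling (823 and 1485); leaving out a library gave 916 to 1676 (331 to 680 higher, 585 to 1053 lower). Called members numbered 6 with DESeq2 (2 higher), 4 with no filter (1 higher, 3 lower) and 10 with no scaling (3 higher, 7 lower); leaving out a library gave 3 to 7 (1 to 3 higher, 2 to 4 lower). Other pathway genes numbered 8 with DESeq2 (3 lower), 5 with no filter (3 higher, 2 lower) and 5 to 11 without a library (3 to 5 higher, 2 to 6 lower). A library left out leaves 1 in its group, which is assumed to vary like the other group. Without X and Y genes, which removes Pdha1 and G6pdx, 9 members were called.

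Some uncalled genes changed sign. Leaving out each library in turn gave log2 fold changes of -0.163 to 0.045 for Hk1, -0.392 to 0.553 for Hk2, -0.225 to 0.0606 for Pgk1, -0.211 to 0.409 for Pdk2, -0.13 to 0.0541 for Rpia, -0.0534 to 0.0687 for Tkt, -0.0717 to 0.16 for Ogdh, -0.0961 to 0.155 for Suclg1 and -0.0264 to 0.0329 for Slc2a3. With no scaling they were -0.044 for Tkt, -0.0116 for Suclg1 and -0.0439 for Slc2a3. The cause was not tested. Without length, the Pdk1 share differed by 9.13 points rather than 12.2.

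No label says that replicate numbers pair the libraries, and deviations of same-numbered libraries correlated at -0.14. A replicate block gave 2319 calls in all and 11 among members; the crossed replicate block gave 2973 and 14. The depth limits genes of few counts such as Hk2, Aldoc and Gapdh.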
